A study of Caenorhabditis elegans with 2 samples.

Results

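The tubulin genes of *Caenorhabditis elegans* and the tubulin acetyltransferase gene mec-17 were examined in 2 mRNA libraries, 1 from the pmk-1 deletion mutant KU25, genotype pmk-1(km25) IV, and 1 from the wild type N2 Bristol. pmk-1 encodes a kinase of the p38 family. Both libraries came from whole lysates of young adults that were fed OP50, a strain of *Escherichia coli*, at 20 °C. The worms were then moved to 35 °C for 5 h, so the 2 groups share the heat treatment and differ in genotype. Neither library is from unheated worms. With 1 library each, other differences between the 2 samples cannot be told apart from genotype. The members were set by gene name and comprised the alpha tubulin genes tba-1, tba-2, tba-4, tba-9 and mec-12, the beta tubulin genes tbb-1, tbb-2, tbb-4 and mec-7, and mec-17. Of these 10 genes, 8 had reads, among 8730 genes with reads in all, and each was listed under a single sequence ID. tba-9 and tbb-4, which are known from ciliated sensory neurons, were not analysed here, and no statement is made on whether they were expressed.

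Microtubules are built from heterodimers of alpha and beta tubulin. The worm carries several copies of each, and tba-1, tba-2, tbb-1 and tbb-2 are the copies known to supply the spindles of the germline and early embryo as well as many other cells. mec-7 and mec-12 are best known from the touch receptor neurons, which sense gentle touch along the body and hold bundles of unusually thick microtubules. MEC-17 is the alpha tubulin acetyltransferase of these neurons and modifies a lysine on the inner face of the microtubule that MEC-12 carries.

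Uniquely mapped reads summed to 5.23 M for the mutant and 5.78 M for the wild type. With 1 library per genotype, no replicate error can be given, no test of genotype was made and no p-value is printed. Ratios between the libraries are in CPM, which scales reads to each library's total, with the mutant on top, and each is followed by its exact 95% interval for counting error. To be counted as higher or lower, a gene needed 50 reads or more in 1 of the libraries, a difference of at least 2-fold and an interval without 1. The transcript of pmk-1 was not analysed here and gives no check of the deletion. In RNA of whole worms, a change in the number of cells of a type and a change in RNA per cell cannot be told apart.

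Levels between genes are compared in RPKM, the authors' deposited value of reads scaled to the length of the listed sequence and to the library total. The copies fell into an abundant set, an intermediate tba-4 and a scarce set. tbb-2 was the most abundant tubulin transcript, at 1592 RPKM in the mutant and 2076 RPKM in the wild type. It was followed by tba-2, at 1207 RPKM in the mutant and 1550 RPKM in the wild type. This order, with a beta copy and an alpha copy on top, was the same in both libraries. tbb-1 had 687 RPKM in the mutant and 913 RPKM in the wild type, and tba-1 had 592 RPKM in the mutant and 843 RPKM in the wild type. tba-4 had 114 RPKM in the mutant and 64.4 RPKM in the wild type. It was therefore 5.18 times below tba-1 in the mutant and 13.1 times below it in the wild type.

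The touch neuron genes had the lowest levels of the 8 members with reads. mec-7 had 20.6 RPKM in the mutant and 10.2 RPKM in the wild type. mec-12 had 17.7 RPKM in the mutant and 6.26 RPKM in the wild type, and mec-17 had 16.2 RPKM in the mutant and 5.48 RPKM in the wild type. In the mutant these 3 levels were not separated beyond counting error, since mec-7 stood 1.17 times above mec-12 (0.912 to 1.5) and mec-12 stood 1.09 times above mec-17 (0.802 to 1.49). In the wild type mec-7 stood 1.62 times above mec-12 (1.12 to 2.37), and mec-12 stood 1.14 times above mec-17 (0.692 to 1.93). All other neighbours in the order of the 8 members differed by more than counting error in both libraries.

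**Figure D1:**
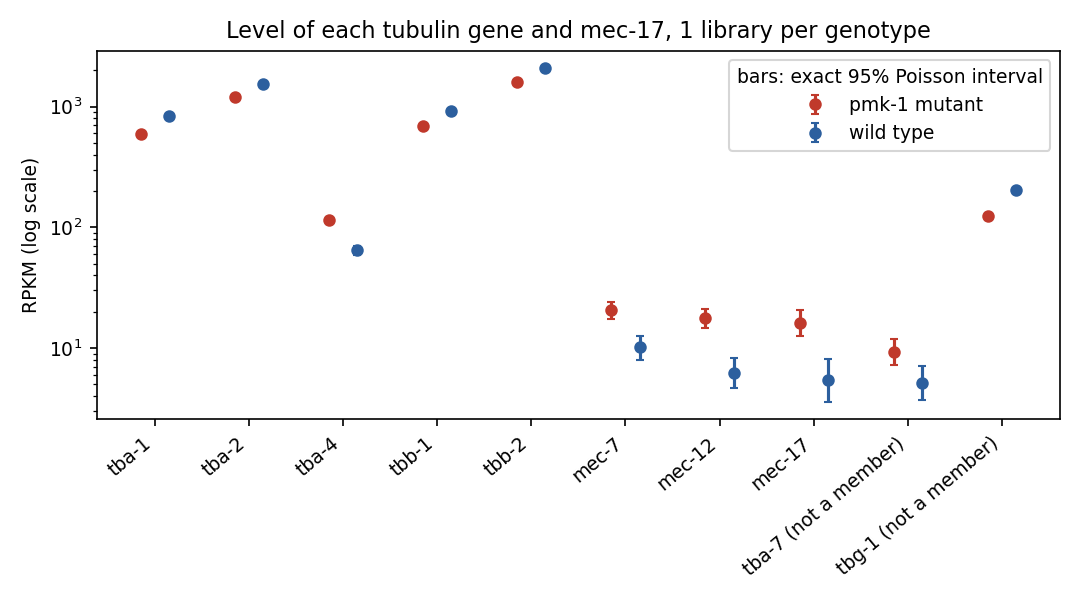
Level of each gene in RPKM on a log axis, with the pmk-1 mutant library to the left of the wild-type library, and bars for the exact 95% Poisson interval of the reads. tba-1, tba-2, tbb-1 and tbb-2 lay between 592 and 2076 RPKM and mec-7, mec-12 and mec-17 between 5.48 and 20.6 RPKM. tba-7 and tbg-1 are shown for comparison.

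The 4 abundant copies were all lower in the mutant library, and by similar amounts. tbb-2 had 11267 reads in the mutant and 16246 in the wild type, a ratio of 0.767 (0.749 to 0.786). tba-2 had 8504 reads in the mutant and 12076 in the wild type, a ratio of 0.779 (0.757 to 0.801). tbb-1 had 4849 reads in the mutant and 7131 in the wild type, a ratio of 0.752 (0.725 to 0.78). These 3 copies thus lay within a narrow range of ratios. tba-1 had 4179 reads in the mutant and 6587 in the wild type and had the lowest ratio of the members, at 0.702 (0.675 to 0.729). Summed, the 4 genes had 28799 reads in the mutant and 42040 in the wild type, a ratio of 0.758 (0.746 to 0.769), and took 0.551% of all reads in the mutant and 0.727% in the wild type.

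None of the 4 was 2-fold lower, and their ratios lay close to that of the typical gene. Of the 5197 genes that reached 50 reads, 91 (1.75%) were counted as lower, and the median log2 ratio of all 5197 was -0.33. Against that median tbb-2 stood at -0.05, tba-2 at -0.03, tbb-1 at -0.08 and tba-1 at -0.18 on the log2 scale. Of the tested genes, 35.5% had a ratio at least as low as that of tba-1. A ratio below 1 was the common case, with 3341 tested genes below 1 and 1856 above. The ratios of the 4 genes stayed below 1 under every scaling of the libraries that was tried.

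tba-4, an alpha tubulin gene grouped with the broadly used copies, went the other way. It had 805 reads in the mutant and 502 in the wild type, a ratio of 1.77 (1.58 to 1.99), which turned to 0.757 (0.676 to 0.848) when the libraries were scaled on somatic markers. It did not reach a ratio of 2, and 21.1% of the tested genes had a ratio at least as high. Because both counts come from the same library, the number of tba-4 reads per 1000 reads of tba-1 and tba-2 does not depend on how the libraries are scaled. That number was 63.5 in the mutant and 26.9 in the wild type, a ratio of 2.36 (2.1 to 2.65). Among alpha and beta tubulin reads together, tba-4 made up 2.69% (2.51 to 2.88, exact binomial interval) in the mutant and 1.18% (1.08 to 1.28) in the wild type.

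Both touch neuron tubulin genes and mec-17 were higher in the mutant library. mec-7, the beta tubulin of the touch neuron microtubules, had 143 reads in the mutant and 78 in the wild type, a ratio of 2.03 (1.53 to 2.71). mec-12, the alpha tubulin that pairs with it, had 125 reads in the mutant and 49 in the wild type, a ratio of 2.82 (2.01 to 4.01). mec-17, whose product acetylates MEC-12, had 67 reads in the mutant and 25 in the wild type, a ratio of 2.96 (1.85 to 4.9). The 3 intervals overlap, so these counts do not separate the 3 ratios from each other. Relative to the median of all genes the log2 ratios were 1.35 for mec-7, 1.82 for mec-12 and 1.88 for mec-17.

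These 3 were the members counted as higher, out of 8, while 914 of all 5197 tested genes (17.6%) were. mec-12 and mec-17 reached 50 reads in the mutant alone, so they could enter the count only by being higher there, and their calls support nothing further. Of the 6 members that reached 50 reads in the wild type, mec-7 was the 1 counted as higher, and 9.05% of all genes at that wild-type level were. A share of 17.4% of the tested genes had a ratio at least as high as that of mec-7, 9.35% as high as that of mec-12 and 8.72% as high as that of mec-17. mec-7 also lay just inside the threshold of 2. With the libraries scaled on somatic markers, none of the 3 was counted, and mec-7 turned to 0.865 (0.652 to 1.16), mec-12 to 1.2 (0.859 to 1.71) and mec-17 to 1.26 (0.788 to 2.09).

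**Figure D2:**
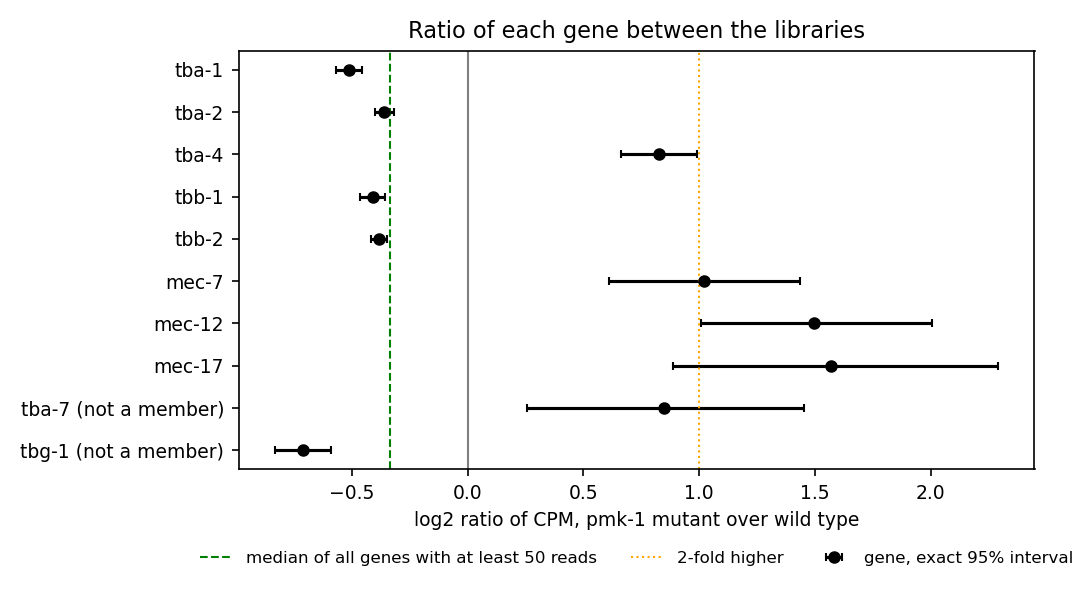
Log2 ratio of CPM, mutant over wild type, for each gene, with its exact 95% interval, on the scale of library totals. The dashed line marks the median of all tested genes at -0.33 and the dotted line a ratio of 2. tba-1, tba-2, tbb-1 and tbb-2 lie near the dashed line, while tba-4, mec-7, mec-12 and mec-17 lie above 0. tba-4 and mec-7 turn below 0 with the scaling on somatic markers.

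The comparison of touch neuron copies with broadly used copies can be made inside each library, where scaling has no part. The reads of mec-7 and mec-12 together came to 9.05 per 1000 reads of tba-1, tba-2, tba-4, tbb-1 and tbb-2 in the mutant and to 2.99 per 1000 in the wild type. This is a ratio of 3.03 (2.44 to 3.78). It was 2.63 (1.98 to 3.52) with mec-7 alone, 3.67 (2.61 to 5.21) with mec-12 alone and 3.08 (2.48 to 3.84) with tba-4 left out of the broad copies. The interval lay above 1 for each of these choices. In RPKM, mec-7 and mec-12 made up 0.905% of the sum over both kinds of copies in the mutant and 0.301% in the wild type, so they remained a small part of the tubulin message in these whole worms.

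Pairing each touch neuron copy with the abundant copies of its own kind gave the same picture. mec-7 had 8.87 reads per 1000 reads of the beta genes tbb-1 and tbb-2 in the mutant and 3.34 in the wild type, a ratio of 2.66 (2 to 3.55). mec-12 had 9.86 reads per 1000 reads of the alpha genes tba-1 and tba-2 in the mutant and 2.63 in the wild type, a ratio of 3.75 (2.68 to 5.34). Within the touch neuron set the proportions did not differ beyond counting error. There were 0.874 reads of mec-12 per read of mec-7 in the mutant and 0.628 in the wild type, a ratio of 1.39 (0.886 to 2.19). There were 0.536 reads of mec-17 per read of mec-12 in the mutant and 0.51 in the wild type, a ratio of 1.05 (0.577 to 1.94). The last interval is wide, and it leaves room for a difference of more than 1.5-fold in either direction.

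The balance of alpha to beta tubulin message was nearly the same in both libraries. All alpha genes with reads, which are tba-1, tba-2, tba-4, tba-6, tba-7 and mec-12, had 13680 reads in the mutant and 19254 in the wild type. The beta genes tbb-1, tbb-2 and mec-7 had 16259 reads in the mutant and 23455 in the wild type. That gave 0.841 alpha reads per beta read in the mutant and 0.821 in the wild type, a ratio of 1.02 (0.995 to 1.06). The beta pair kept its proportions as well, with 0.43 reads of tbb-1 per read of tbb-2 in the mutant and 0.439 in the wild type, a ratio of 0.98 (0.938 to 1.02). The alpha pair shifted slightly, with 0.491 reads of tba-1 per read of tba-2 in the mutant and 0.545 in the wild type, a ratio of 0.901 (0.859 to 0.945).

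Tubulin copies are similar in sequence, and the counts hold uniquely mapped reads alone, so coverage shows how much of each listed sequence unique reads reached. An ID with a single read had 49 covered bases, which gives the read length. For the 5 broadly used copies coverage was 98.7% to 99.9% in both libraries, and between 1 and 18 bases of each sequence were not covered. Evenly placed reads of that number would leave almost nothing uncovered, so these short gaps exceed what even placement gives. tba-4 had the most, with 15 uncovered bases in the mutant and 18 in the wild type.

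The scarcer genes were covered over most of their length, mec-7 and mec-12 somewhat less than even placement gives and mec-17 somewhat more. mec-7 reads covered 96.1% of its 1326 bases in the mutant and 91.6% in the wild type, while even placement would give 98.4% in the mutant and 93.4% in the wild type. mec-12 reads covered 96.5% of 1353 bases in the mutant and 78.3% in the wild type, while even placement would give 97.8% in the mutant and 82.6% in the wild type. mec-17, which is no tubulin copy, had 99% of 789 bases covered in the mutant and 85.2% in the wild type. Even placement would give it 96.5% in the mutant and 78.3% in the wild type. Reads of mec-7 and mec-12 were thus spread over most of each gene and did not come from a short stretch. Coverage does not count the reads that were discarded for mapping to several copies, so the level of any single copy may be understated. In the WBcel235 annotation, no exon of another gene overlaps the coding sequence of these 8 members, which matters because no strand-specific kit is named in the labels.

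**Figure D3:**
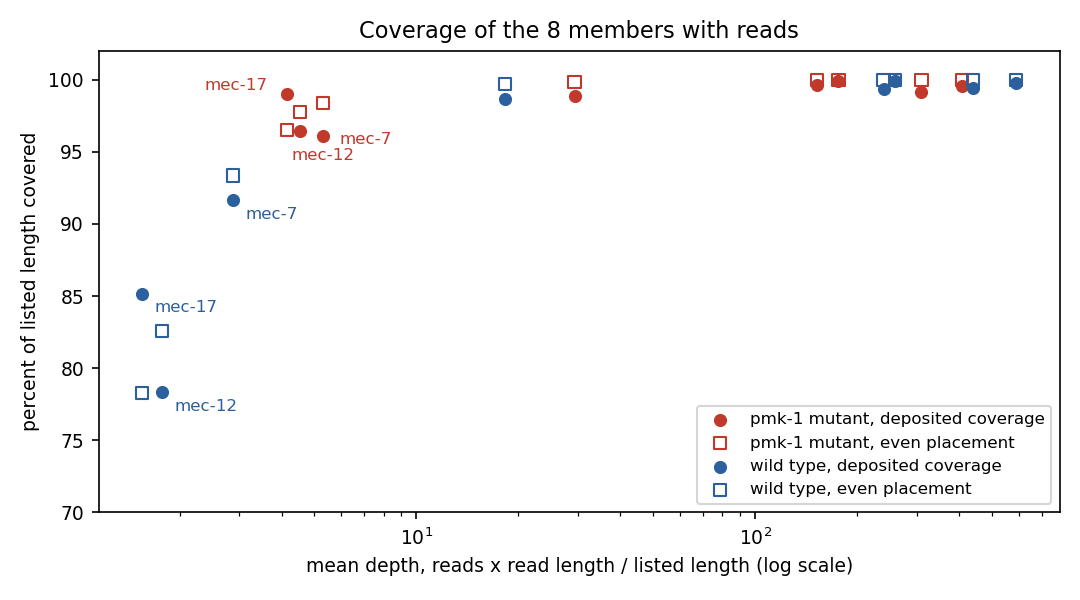
Percent of the listed length covered by unique reads against mean depth on a log axis, for the 8 members in each library, with open squares for the coverage that the same number of evenly placed reads would give. The broadly used copies sit at 98.7% or more, and mec-12 in the wild type is lowest, at 78.3%.

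Of 7 further tubulin genes, 3 had reads, and they again differed by copy. tbg-1, the gamma tubulin gene that nucleates microtubules at centrosomes, had 867 reads in the mutant and 1571 in the wild type, a ratio of 0.61 (0.561 to 0.664). It had 30.1 reads per 1000 reads of the 4 abundant copies in the mutant and 37.4 in the wild type, a ratio of 0.806 (0.74 to 0.877), so it lay below them also within the library. tba-7, another alpha tubulin gene, had 65 reads in the mutant and 40 in the wild type, a ratio of 1.8 (1.19 to 2.74), which turned to 0.767 (0.509 to 1.17) with the scaling on somatic markers. Outside the rule for naming genes, tba-6 had 2 reads in the mutant and 0 in the wild type. tba-5, tba-8, tbb-6 and ben-1 were not analysed here.

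Few enzymes that modify tubulin could be compared. Of 11 such genes, 5 had reads, the others were not analysed here, and ttll-12, of the tubulin tyrosine ligase-like family, was the 1 that reached 50 reads. ttll-12 had 10379 reads in the mutant and 8104 in the wild type, a ratio of 1.42 (1.38 to 1.46), with more than 99% of its sequence covered in both, and it turned to below 1 with the scaling on somatic markers. Outside the rule for naming genes, atat-2, the relative of mec-17, had 3 reads in each library. hda-6, a histone deacetylase family gene, had 36 reads in the mutant and 40 in the wild type, and reads covered 7.95% of its main ID in the mutant and 8.99% in the wild type, so its count gives no level for the gene.

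The genes that fold tubulin were lower, like the abundant copies and like most tested genes. Of 20 genes in the cytosolic chaperonin, prefoldin and tubulin cofactor list, 15 had reads, and the others were not analysed here. All 15 had a ratio below 1. The interval lay below 1 for 11 of the 15, and none was 2-fold lower. Outside the rule for naming genes, reads covered only 20.6% of cct-7 in both libraries. For cct-5 coverage was 40.5% in the mutant and 40.6% in the wild type. Among all 5197 tested genes, 3341 had a ratio below 1 and 2788 an interval below 1. The median log2 ratio of the list was -0.47, beside -0.33 for all genes. The largest differences were in evl-20, an ARL2-like GTPase gene required for microtubule formation, at 0.553 (0.426 to 0.714), tbce-1, tubulin cofactor E, at 0.613 (0.537 to 0.698), and the prefoldin subunit gene pfd-6, at 0.644 (0.559 to 0.741). Within the libraries there were 1.47 reads of the 4 abundant tubulin copies per read of this list in the mutant and 1.41 in the wild type, a ratio of 1.04 (1.02 to 1.07).

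Proteins that bind, sever or nucleate microtubules followed the same direction. Of the 13 genes at 50 reads, all had a ratio below 1, as did 3341 of all 5197 tested genes. Of these 13, 1 was counted as lower, beside 1.75% of all tested genes. Their median log2 ratio was -0.43, beside -0.33 for all genes. The counted gene was mei-1, the catalytic subunit of the katanin that severs microtubules in the meiotic spindle, with 28 reads in the mutant and 62 in the wild type. Those reads were summed over 2 IDs, and reads covered 6.02% of its main ID in the mutant and 6.51% in the wild type. The call was lost with TMM and with median-of-ratios factors. Its partner mei-2 had 957 reads in the mutant and 1999 in the wild type, a ratio of 0.529 (0.49 to 0.572). spas-1, the spastin gene, had 40 reads in the mutant and 80 in the wild type, a ratio of 0.553 (0.369 to 0.818). They were summed over 3 IDs, and reads covered 17.2% of its main ID in the mutant and 17.35% in the wild type. Among 12 motor genes at that level, 9 had a ratio below 1, and the median log2 ratio was -0.37. The kinesin genes klp-16 and klp-15, which are similar to each other and therefore uncertain as single genes, stood at 0.529 (0.474 to 0.589) and 0.583 (0.516 to 0.659). klp-17, another kinesin gene, was the 1 motor gene of 12 counted as higher, beside 17.6% of all tested genes, with 84 reads in the mutant and 13 in the wild type, a ratio of 7.15 (3.96 to 14), and coverage of 82.5% in the mutant and 32.3% in the wild type. It reached 50 reads in the mutant alone, so it could enter the count only as higher.

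Few other genes of touch neurons could be compared. Of 14 genes with touch phenotypes or touch neuron roles besides the members, 9 had reads, 6 of them with fewer than 10 reads in both libraries. The channel gene mec-4 and the transcription factor genes mec-3 and unc-86 were not analysed here. The 3 genes with at least 50 reads went in different directions. mec-5, a collagen gene for the matrix around the touch neurons that the hypodermis makes, had 168 reads in the mutant and 93 in the wild type, a ratio of 1.998 (1.54 to 2.6), which lies just outside the threshold of 2 and turns below 1 with the scaling on somatic markers. mec-15, an F-box protein gene, had a ratio of 0.593 (0.526 to 0.668), and mec-8, a splicing factor gene, had 0.626 (0.42 to 0.921).

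General neuronal genes went in both directions. Of 7 such genes at 50 reads, 4 had a ratio above 1 and 3 below 1. Counted as higher were 3 of the 7, beside 17.6% of all tested genes, and the median log2 ratio was 0.96, turning to -0.26 with the scaling on somatic markers. egl-21, a carboxypeptidase that processes neuropeptides, stood at 2.7 (2.32 to 3.15), unc-13, which primes synaptic vesicles, at 2.63 (2.05 to 3.39), and ida-1, of dense core vesicles, at 2.21 (1.82 to 2.69). The other genes at that level are named outside the rule. egl-3 stood at 1.96 (1.34 to 2.91), with 18.4% of its sequence covered in the mutant and 18.8% in the wild type. unc-26, which encodes synaptojanin, stood at 0.707 (0.601 to 0.831). unc-18, a syntaxin-binding protein gene, stood at 0.808 (0.647 to 1.01) and snb-1, the synaptobrevin gene, at 0.965 (0.845 to 1.1). Pooled over 16 genes, reads were 2120 in the mutant and 1697 in the wild type, a ratio of 1.38 (1.3 to 1.47), which is below the ratios of mec-7 and mec-12. The reads of mec-7 and mec-12 per 1000 of these reads were 126 in the mutant and 74.8 in the wild type, a ratio of 1.69 (1.35 to 2.12). Both pooled values are weighted towards genes with many reads. In the wild type snb-1, unc-26 and unc-18, with ratios below 1, had 480, 391 and 197 of the 1697 reads. There egl-21, with a ratio above 1, had 238. No pool without these genes was made. The median log2 ratio of the list, 0.96, lay near the 1.02 of mec-7. Of 40 cilium genes, 11 had reads and 2 reached 50, osm-1 at 0.903 (0.627 to 1.3) and hyls-1 at 0.806 (0.657 to 0.986).

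Markers of tissues also differed between the libraries, and their part in these results was not tested. The oogenic germline and early embryo list, 20 of whose 25 genes had reads, took 1.32% of reads in the mutant and 2.12% in the wild type. Its median log2 ratio was -0.82 and 19 of the 20 genes had a ratio below 1. The remaining gene, perm-2, named here outside the rule, stood at 1.47 (1.43 to 1.51). It held 12488 of the list's 69141 reads in the mutant and 9410 of 122636 in the wild type. The 4 abundant tubulin copies had 417 reads per 1000 reads of that list in the mutant and 343 in the wild type, a ratio of 1.22 (1.19 to 1.24), so they were lowered less than the list. For tbg-1 the same ratio was 0.979 (0.899 to 1.06), which does not separate it from the summed reads of the list. Both ratios include perm-2 and were not computed without it. Whether tbg-1 differed from the other genes of the list was therefore not tested.

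Body wall muscle genes, 10 of 13 with reads, took 0.632% of reads in the mutant and 0.273% in the wild type. Of 9 at 50 reads, 8 were counted as higher, beside 17.6% of all tested genes. The remaining gene at that level, dim-1, named here outside the rule, went the other way, at 0.581 (0.364 to 0.912). unc-54, myo-3 and unc-22, which define that tissue, were not analysed here. The reads of mec-7 and mec-12 per 1000 muscle reads were 8.11 in the mutant and 8.04 in the wild type, a ratio of 1.01 (0.812 to 1.26). The touch neuron copies and muscle genes therefore stood in the same proportion in both libraries within counting error. tba-4 had 24.4 reads per 1000 muscle reads in the mutant and 31.8 in the wild type, a ratio of 0.766 (0.683 to 0.859). Sperm genes, 18 of 21 with reads, took 0.0537% of reads in the mutant and 0.00591% in the wild type.

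**Figure D4:**
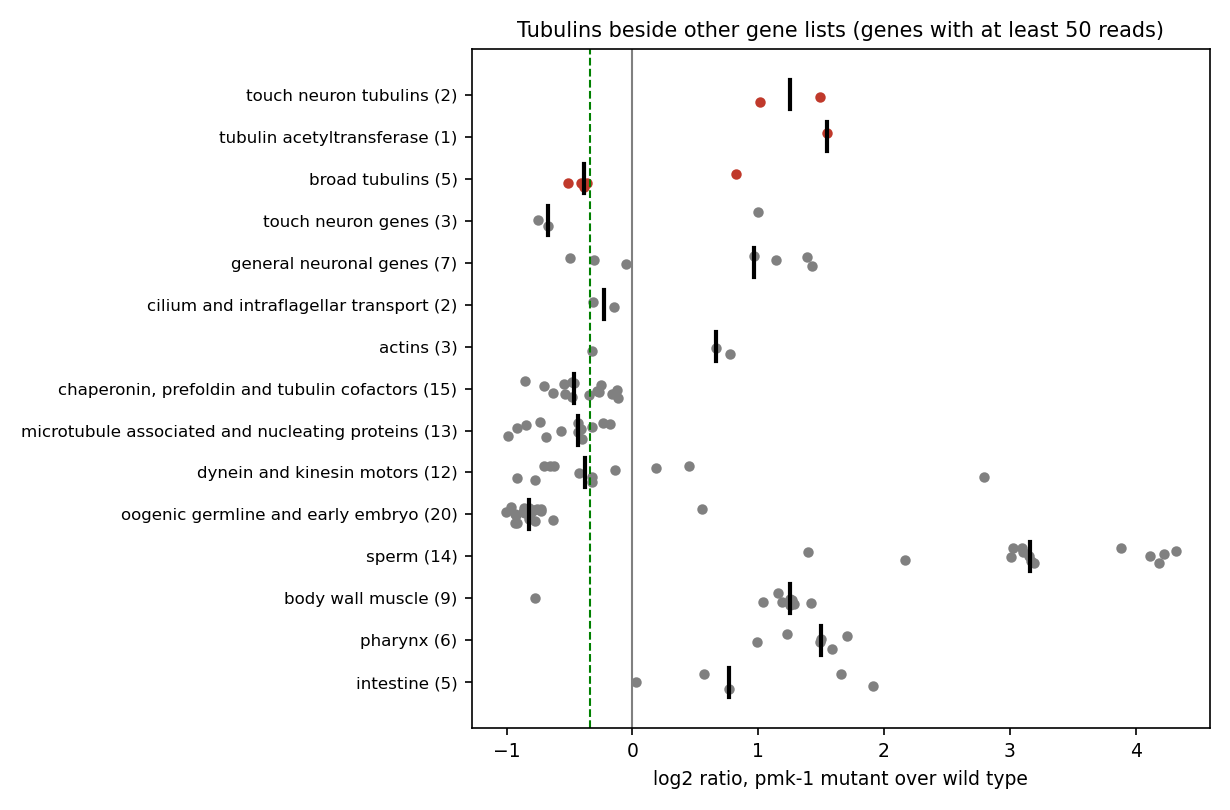
Log2 ratio, mutant over wild type, of each gene that reached 50 reads, by list, with the number of genes in brackets, red points for the tubulin genes and mec-17, and a black bar for each median. The dashed line is the median of all tested genes at -0.33. The broadly used copies other than tba-4 lie beside the chaperonin, microtubule and motor lists, and mec-7, mec-12 and mec-17 lie in the range of the pharynx list. mec-7 lies also in the range of the muscle list, whose highest gene, at 1.42, is below mec-12 and mec-17.

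Which tubulin copies were counted as different depended on the scaling. With library totals, TMM factors or median-of-ratios factors, mec-7, mec-12 and mec-17 were counted as higher and no member as lower. The scaling on somatic markers set the median of 23 markers to 0, of which 9 were of muscle, 6 of pharynx, 5 of intestine and 3 of hypodermis. Most were thus of muscle and pharynx. With library totals, the median log2 ratio was 1.25 for muscle, 1.5 for pharynx, 0.77 for intestine and -0.79 for hypodermis. A single factor therefore did not centre each tissue. Every log2 ratio was lowered by 1.23 with this scaling. Then no member was higher, and tba-1, tba-2, tbb-1 and tbb-2 were counted as lower, at ratios of 0.299 to 0.332. Under that scaling 303 of all tested genes were higher and 3595 lower, while with library totals 914 were higher and 91 lower. The order of the members and the ratios taken within a library are the same under all 4 scalings.

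**Figure D5:**
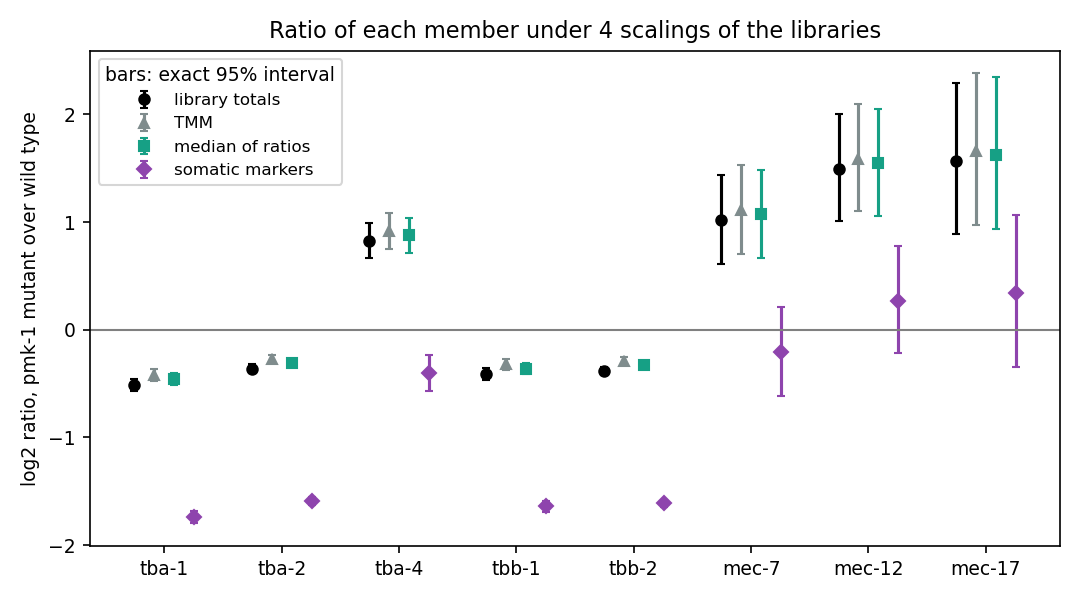
Log2 ratio of each member, mutant over wild type, under 4 scalings of the libraries, with exact 95% intervals. The distance between touch neuron and abundant copies is the same under each, while with somatic markers all values are lowered by 1.23, so that tba-4 and mec-7 fall below 0 and the intervals of mec-7, mec-12 and mec-17 include 0.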

How the data were processed

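Per the labels' protocols, oligo(dT) selection and random priming preceded sequencing on a HiSeq2000. Per the file headers, the authors deposited a count of unique reads for each coding sequence ID, the listed length, the percent of that length covered, and RPKM, which was recomputed from the counts with a largest relative error of 2.8e-08. The aligner and the build were not given in the sources used here. Coordinates are therefore left out. No sequences were used here.

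Of 9430 IDs, 9341 matched protein-coding sequence names of the WBcel235 annotation, used for names and for overlaps of exons, and IDs of 1 gene were summed. Genes not listed in a library were given 0 reads, which touches no member. A count of 0 allows 3 reads. Ratios carry exact Clopper-Pearson intervals, and ratios of ratios exact conditional intervals (scipy 1.17.1). Both cover counting error only, and treat reads as independent molecules, which reads lacking molecular identifiers may not be. Log2 ratios used a prior of 0.5 reads. Expected coverage assumed reads of 49 bases placed evenly. The intervals and the call rule were run on simulated data, but no outcome is printed and no result here rests on it. Alternatives were TMM factors (edgeR 4.0.16), median-of-ratios factors, somatic markers, other read levels and folds, single isoform IDs and RPKM.

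The members and gene lists were chosen with earlier results of these data known. Named genes were all members, all genes with at least 50 reads among other tubulins, tubulin modifying enzymes and touch neuron genes, and up to 3 genes with the largest absolute log2 ratio in each other list, and exceptions are stated. No gene is named for a pattern like that of a member, since 2 libraries give each gene a single ratio.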

Additional observations from a re-analysis of the deposited data

How the results depend on the processing

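Scaling changed the most. With the scaling on somatic markers, the ratio of the summed touch neuron copies turned to 0.996 and that of the 4 abundant copies to 0.323, tba-4 turned to 0.757 and mec-7 to 0.865, 0 members were counted as higher and 4 as lower, and over all genes 303 were higher and 3595 lower, with the share of calls on the higher side at 7.77% beside 90.9% with library totals. The median log2 ratio turned to -0.26 for general neuronal genes, -0.46 for intestine genes and -0.56 for actins. The actin median is the value of act-4, of which unique reads covered only 8.84% in both libraries. The summed abundant copies had a ratio of 0.807 with TMM and 0.785 with median-of-ratios factors, and 59 genes were counted as lower with TMM. Over all genes, 1531 were higher and 157 lower at a level of 10 reads, 1601 higher and 164 lower with no minimum, and 1436 were lower at a ratio of at least 1.5, where tba-4 joined the members counted as higher. With a mean of at least 50 reads mec-17 was not tested. The ratio of touch neuron reads to broad reads, 3.03, was 1.69 with general neuronal genes and 1.01 with body wall muscle genes in place of the broad copies, both chosen after the data were seen. Deposited RPKM and single isoform IDs could not move a member, since each member has a single ID and RPKM rescales the same reads, so these settings are no check. Causes were not tested. The 49 and 25 wild-type reads of mec-12 and mec-17 limit the precision of their ratios. No paired analysis was possible because each genotype had 1 library, which also left no library to leave out.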

Other observations

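Actins, the other main cytoskeletal family, also differed by copy. act-5, the actin of the intestinal brush border, had 3688 reads in the mutant and 2381 in the wild type, a ratio of 1.71 (1.62 to 1.8), and act-4 had 277 reads in the mutant and 193 in the wild type, a ratio of 1.59 (1.32 to 1.92), while act-2 had 11495 reads in the mutant and 15879 in the wild type, a ratio of 0.801 (0.782 to 0.82). Actin copies are near-identical, so single genes are uncertain, and act-4 and act-5 turn below 1 with the scaling on somatic markers. Unique reads covered only 8.84% of act-4 in both libraries, so its count gives no level for the gene. Coverage of act-2 was 82.49% in both libraries, and that of act-5 was 99.91% in the mutant and 99.82% in the wild type. The difference by copy therefore rests on act-5 and act-2. All 6 pharynx genes at 50 reads were counted as higher, 2 of which reached that level in the mutant alone, with a median log2 ratio of 1.5, beside 17.6% counted as higher among all tested genes. Of 5 intestine genes 2 were, with a median of 0.77, and of 3 hypodermis genes 1 was, with a median of -0.79. Of 14 sperm genes at that level, 13 reached it in the mutant alone and could be counted only as higher, so their count and their median of 3.16 are descriptions.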
